A study of Homo sapiens with 6 samples.

Results

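The 10 genes described here encode chaperones of the endoplasmic reticulum (ER) and components of the unfolded protein response (UPR), namely *HSPA5*, *HSP90B1*, *XBP1*, *DNAJB9*, *PDIA4*, *SDF2L1*, *HERPUD1*, *CALR*, *CANX* and *ERN1*. They were taken by symbol from the 58735 genes of the deposited expression table, and each symbol had 1 entry. All 10 had a mean of at least 1 FPKM (fragments per kilobase of gene, scaled to sequencing depth), the minimum for testing, which 12128 genes reached. Expression was measured by RNA sequencing in MDA-MB-231, a human basal-like breast cancer line, in cells that the labels call SCR, with a genotype of WT, a background that both groups share. The study describes a control line with a non-targeting shRNA (shSCR). The paper lists these data among those of its shSCR and shMAFF cells, although the labels do not say outright that the cells are shSCR. The control group received 0 Gy (3 libraries), and the irradiated group received 10 Gy from a sealed caesium gamma source and was harvested 24 h later (3 libraries). The design therefore holds a single cell line, dose and time, and the labels do not say whether the 3 libraries of a group came from separate cultures, so the p-values measure only the spread between these libraries.

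Proteins that enter the ER fold with the help of luminal chaperones, disulfide isomerases and the lectins calnexin and calreticulin, and those that fail are returned to the cytosol and degraded. Unfolded protein in the ER activates the sensors IRE1 (encoded by *ERN1*), PERK and ATF6. Active IRE1 removes a short stretch from *XBP1* mRNA, ATF6 is cut to release a transcription factor, and PERK favours translation of ATF4. The resulting factors raise transcription of chaperone genes, and secretory and cancer cells are known for relying on this system.

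Many UPR target genes carry an ER stress response element in their promoter, a motif bound by NF-Y together with ATF6 or XBP1. The element ERSE reads CCAAT, then any 9 bases, then CCACG, and the element ERSE-II reads ATTGG, then any base, then CCACG. Both strands of the 250 bases upstream of each gene's first listed start were searched in the RefSeq promoter table (GRCh38.p14), in which all 10 genes were found. For some genes this window lies inside the span used for counting. The window of *CANX* starts at chr5:179698679, whereas its span starts at 179678628. Other starts are listed for some genes, and start 2 of *XBP1* and starts 2 and 3 of *CANX* had no match. ERSE was present upstream of 5 of the 10 genes and of 22 of the 27305 genes in the table (0.0806%). ERSE-II was present upstream of 2 of the 10 genes and of 14 in the table (0.0513%), and no gene held both. The 10 genes were chosen for their part in this response, whose targets are known to carry these elements. The shares are therefore a description and no test of enrichment. The matches are shown because they are the sequence feature that most of the 10 genes have in common. They are written in the direction of the motif, with its fixed bases in capitals, and the name gives the distance of the match from the start:
HSPA5, 66 to 48 bases upstream: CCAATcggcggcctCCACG
HSP90B1, 194 to 176 bases upstream: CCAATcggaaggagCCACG
HSP90B1, 89 to 71 bases upstream, opposite strand: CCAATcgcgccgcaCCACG
XBP1, 52 to 34 bases upstream: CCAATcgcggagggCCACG
CANX, 151 to 133 bases upstream: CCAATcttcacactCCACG
CALR, 225 to 207 bases upstream, opposite strand: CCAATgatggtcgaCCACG
SDF2L1, 188 to 178 bases upstream, opposite strand: ATTGGtCCACG
HERPUD1, 117 to 107 bases upstream: ATTGGgCCACG

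*HSP90B1* was the member with 2 matches, and *CALR* and *HSPA5* were the most abundant members with 1. Their 250 upstream bases are printed from RefSeq on the strand of the gene, with the fixed bases of each match in capitals. A match on the opposite strand reads as CGTGG and ATTGG here.
HSP90B1, chr12:103930160-103930409, plus strand: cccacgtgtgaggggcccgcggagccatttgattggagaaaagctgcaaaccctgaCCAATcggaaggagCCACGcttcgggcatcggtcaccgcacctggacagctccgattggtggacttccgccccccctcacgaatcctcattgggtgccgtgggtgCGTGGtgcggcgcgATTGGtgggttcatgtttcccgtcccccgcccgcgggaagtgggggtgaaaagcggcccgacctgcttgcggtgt
CALR, chr19:12938359-12938608, plus strand: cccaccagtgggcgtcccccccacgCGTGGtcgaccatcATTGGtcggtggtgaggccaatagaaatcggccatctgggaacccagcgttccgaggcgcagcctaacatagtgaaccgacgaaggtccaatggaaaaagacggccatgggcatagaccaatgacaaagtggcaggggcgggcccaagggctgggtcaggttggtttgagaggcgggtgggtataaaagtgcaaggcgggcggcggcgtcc
HSPA5, chr9:125241344-125241593, minus strand: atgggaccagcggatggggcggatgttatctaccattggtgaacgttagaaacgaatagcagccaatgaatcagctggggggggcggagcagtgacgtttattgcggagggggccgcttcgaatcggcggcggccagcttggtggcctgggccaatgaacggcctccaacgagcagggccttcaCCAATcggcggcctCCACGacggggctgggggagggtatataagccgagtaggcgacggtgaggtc

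*DNAJB9*, *PDIA4* and *ERN1* had no match, which says only that these letters do not occur in these windows.

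The libraries held between 15643641 and 28861781 recovered reads. On the log2(FPKM + 1) scale the lowest correlation within a dose was 0.992, and the highest between doses was 0.989. Each of the 8 mesenchymal and basal-like markers expected of MDA-MB-231 was above 1 FPKM on average. Of 7 luminal markers 3 were also at or above 1 FPKM, namely *KRT8* (means of 95 and 102 FPKM at 0 and 10 Gy), *GATA3* (3.05 and 2.93) and *EPCAM* (1.44 and 1.34), while *ESR1* and *FOXA1* were near 0 and *PGR* was listed at 0 in every library. The summed level of the luminal list was 94.5 to 107 FPKM at 0 Gy and 105 to 108 FPKM at 10 Gy. The summed level of the 8 mesenchymal and basal-like markers was 1273 to 1285 FPKM at 0 Gy and 1011 to 1049 FPKM at 10 Gy. None of the 4 blood cell markers and none of the 3 fibroblast markers reached 1 FPKM on average, and 1 of the 3 endothelial markers did, with a summed level of that list of 1.29 to 1.34 FPKM at 0 Gy and 1.99 to 2.09 FPKM at 10 Gy. The part of these shifts in the changes below was not tested, and in bulk RNA fewer cells of a kind and less RNA per cell cannot be told apart.

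The 10 genes were abundant as a group and spanned a wide range of levels. Together they summed to 1287, 1275 and 1243 FPKM in the 3 libraries at 0 Gy and to 1245, 1247 and 1268 FPKM at 10 Gy. The sums of the 2 groups overlapped. As a share of all FPKM in a library they were 0.462%, 0.471% and 0.461% at 0 Gy and 0.503%, 0.505% and 0.497% at 10 Gy. The share was higher in all 3 irradiated libraries, and the FPKM of all genes summed to less there, with 269611 to 278380 at 0 Gy and 246920 to 254918 at 10 Gy. At 0 Gy the order of mean levels was *CALR* (438 FPKM), *HSPA5* (253), *CANX* (231), *HSP90B1* (163), *PDIA4* (104), *SDF2L1* (32.4), *XBP1* (28.6), *HERPUD1* (7.88), *DNAJB9* (5.86) and *ERN1* (3.87). FPKM is per length, so these levels can be compared between genes. *CALR* stood at the 99.5th percentile of the tested genes and *ERN1* at percentile 33.1. The order was the same at 10 Gy. At 0 Gy the only neighbours whose library ranges overlapped were *SDF2L1* and *XBP1*, and at 10 Gy the only ones were *DNAJB9* and *ERN1*.

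**Figure D1:**
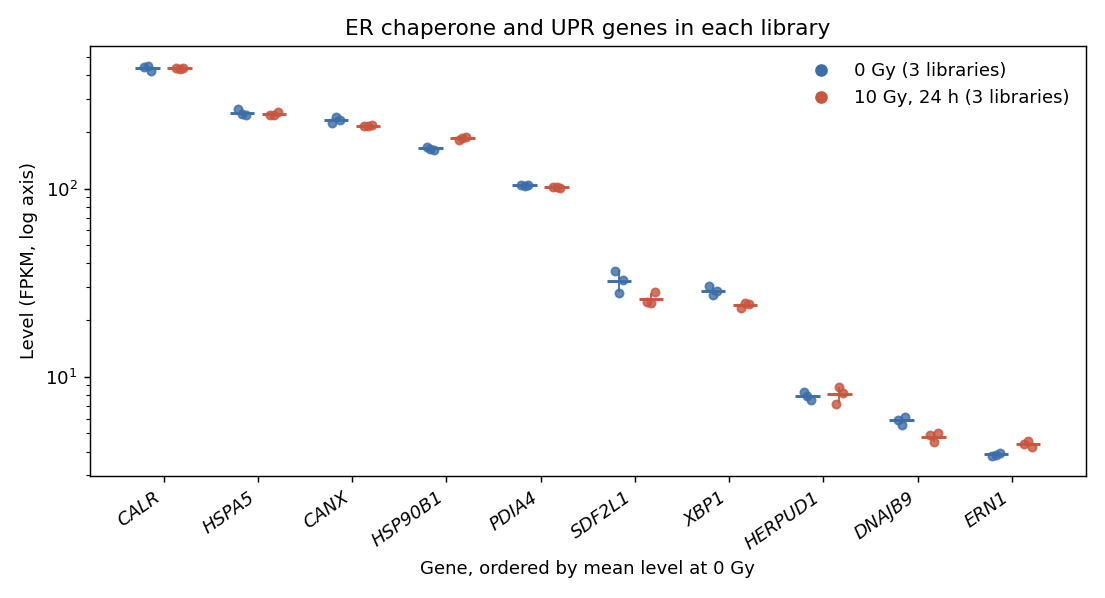
Level of each of the 10 genes in FPKM (log axis) in the 3 libraries at 0 Gy and the 3 libraries at 10 Gy, with a horizontal line at each mean and a vertical line for its SD. From *CALR* at 438 FPKM to *ERN1* at 3.87 FPKM at 0 Gy, the order of the genes is the same in both groups, and *HSP90B1* and *ERN1* lie higher at 10 Gy while *XBP1* and *DNAJB9* lie lower.

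The design allows a single comparison, that of 10 Gy with 0 Gy. With the deposited values the luminal chaperone *HSP90B1* and the sensor gene *ERN1* rose, and the transcription factor gene *XBP1* and the HSPA5 cochaperone genes *DNAJB9* and *SDF2L1* fell, all by less than 1.3-fold. *HSPA5*, *PDIA4*, *HERPUD1*, *CALR* and *CANX* did not pass the test. Expression was compared with limma, and a gene was called at an adjusted p under 0.05. Thus 2 of the 10 genes (20.0%) were called higher, where 11.9% of all 12128 tested genes were, and 3 (30.0%) were called lower, where 23.7% of all were. Both shares are near the background and are no result about the 10 genes as a set. With the deposited values a change of at least 1.3-fold was reached by none of the 10 in limma at either the adjusted or an unadjusted p under 0.05, nor with voom on recovered reads. It was reached by *HSP90B1* with upper quartile scaling (log2 change 0.43, adjusted p = 0.00277) and by *SDF2L1* without 0 Gy library 2 (-0.40, adjusted p = 0.0101). With the deposited values such called changes were found for 2.82% (higher) and 2.95% (lower) of all genes. All 3 irradiated libraries lay above all 3 controls for 2 of the 10 genes (19.1% of all genes) and below them for 4 (32.8% of all genes). The median log2 change was -0.03 over the 10 genes and -0.04 over all genes.

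Small changes such as these depend on how libraries are scaled. The deposited values already carry a scaling factor per library, which was 0.9725 to 0.991 at 0 Gy and 1.0278 to 1.0389 at 10 Gy and lowers the irradiated values relative to the controls. With the deposited values the median of all genes was -0.04, whereas after scaling every library to the same sum of FPKM (TPM scaling) it was 0.08, after upper quartile scaling 0.18 and after median-of-ratios scaling 0.00. The upper quartile was taken over values above 0, and more genes were above 0 at 10 Gy (24876 to 26496) than at 0 Gy (22169 to 23975). The part of this difference in that scaling was not tested. Upper quartile scaling also widened the SE, for *HSP90B1* from 0.03 to 0.09. The calls over all genes, 1443 higher and 2874 lower with the deposited values, became 3113 and 1066 with TPM, 3922 and 122 with the upper quartile and 1945 and 2047 with median-of-ratios scaling. Of the 10 genes, 4 were called higher and 0 lower with TPM, 3 and 0 with the upper quartile and 2 and 2 with median-of-ratios scaling. The change of each of the 10 genes is therefore also given relative to the median gene, with the deposited values. That difference itself varied somewhat with scaling, for *ERN1* between 0.18 and 0.22. Pairs of genes are compared as ratios within a library, which no scaling can alter.

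*ERN1* (ENSG00000178607, GRCh38 chr17:64039142-64130819, minus strand) encodes IRE1, the ER membrane kinase and endoribonuclease that cuts *XBP1* mRNA. It was at 3.81, 3.84 and 3.95 FPKM at 0 Gy and at 4.39, 4.56 and 4.22 FPKM at 10 Gy. Every irradiated library lay above every control. *ERN1* rose by a log2 change of 0.15 (SE 0.04, 95% interval 0.04 to 0.25, limma adjusted p = 0.0386), or 0.19 above the median gene. The direction held under every scaling, but the call was lost whichever library was left out (adjusted p 0.0547 to 0.127), with a minimum of 0.1 FPKM or no filter on low values (0.0576 and 0.0774) and in a fit blocked by replicate number (0.0911).

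*XBP1* (ENSG00000100219, chr22:28794555-28800597, minus strand) encodes the transcription factor that is made from IRE1-spliced mRNA. It was at 30.2, 27.2 and 28.4 FPKM at 0 Gy and at 23.3, 24.7 and 24.3 FPKM at 10 Gy. All irradiated libraries lay below all controls, so that *XBP1* and *ERN1* moved in opposite directions. *XBP1* fell by 0.24 on the log2 scale (SE 0.05, 95% interval -0.34 to -0.13, adjusted p = 0.00787) and lay 0.20 below the median gene (difference -0.20). The call held with any library left out and with median-of-ratios scaling (-0.19, adjusted p = 0.0148), but was lost with TPM scaling (-0.12, adjusted p = 0.0672), and with upper quartile scaling the change was 0.01. Within libraries the ratio of *XBP1* to *ERN1* was 7.94, 7.07 and 7.18 at 0 Gy and 5.30, 5.42 and 5.75 at 10 Gy. The ratio at 10 Gy was 0.743 times that at 0 Gy, and the groups did not overlap. The ratio to *ERN1* was likewise lower in all irradiated libraries for 58.6% of all tested genes and higher for 5.69%.

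The stretch that IRE1 removes is shown because a gene-level value cannot tell the spliced from the unspliced form. It is 26 bases long and lies in exon 4 of 5 of the unspliced transcript (GENCODE 29, GRCh38 chr22:28796122-28796147, minus strand), whose coding sequence has 783 bases. The spliced transcript lacks it and has 1128 coding bases, since the reading frame changes. Bases repeat at its edges, so that 7 placements give the same spliced sequence. The annotated placement is shown, and its edges need not be the exact sites that IRE1 cuts. The stretch is in capitals, with 24 flanking bases on each side:
XBP1, unspliced: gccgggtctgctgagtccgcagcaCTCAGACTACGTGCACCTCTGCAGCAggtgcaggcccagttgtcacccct
XBP1, spliced: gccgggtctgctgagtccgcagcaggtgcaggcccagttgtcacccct
The stretch makes up 0.859% of the length over which *XBP1* was counted. The FPKM of *XBP1* given above is thus the sum of both forms, and splicing was not measured.

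*HSPA5* (ENSG00000044574, chr9:125234853-125241330, minus strand) encodes BiP, the main Hsp70 chaperone of the ER lumen, whose release from the sensors accompanies their activation. It was at 265, 250.1 and 245 FPKM at 0 Gy and at 246, 246 and 255 FPKM at 10 Gy. The 2 groups overlapped. The log2 change was -0.02 (95% interval -0.12 to 0.07, adjusted p = 0.678), which was 0.01 above the median gene. With TPM scaling *HSPA5* was called higher (0.10, adjusted p = 0.0297), and with upper quartile and median-of-ratios scaling its change was 0.23 and 0.02, neither of them called.

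*HSP90B1* (ENSG00000166598, chr12:103930107-103953645, plus strand) encodes GRP94, the Hsp90 of the ER, which folds integrins and Toll-like receptors among others. It was at 166, 163 and 161 FPKM at 0 Gy and at 180.3, 185 and 188 FPKM at 10 Gy. The irradiated libraries all lay above the controls, by more than the spread within either group. *HSP90B1* rose by 13.0%, a log2 change of 0.18 (SE 0.03, 95% interval 0.10 to 0.25, adjusted p = 0.00709), or 0.21 above the median gene. It was called higher under every scaling and every other alternative run, with log2 changes between 0.16 and 0.43.

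*HSP90B1* thus moved apart from the abundant chaperones *HSPA5* and *CALR*. Its ratio to *HSPA5* was 0.626, 0.653 and 0.656 at 0 Gy and 0.734, 0.754 and 0.736 at 10 Gy, or 1.15 times the control ratio. Its ratio to *CALR* was 0.374, 0.366 and 0.379 at 0 Gy and 0.412, 0.429 and 0.431 at 10 Gy, or 1.14 times the control ratio. Neither ratio overlapped between groups. Of all tested genes, 19.5% were higher against *HSPA5* without overlap and 19.4% against *CALR*. All 3 genes carry an ERSE match in the upstream bases shown above. The opposite-strand gene *C12orf73* shares 121 exonic bases with *HSP90B1* (2.58% of its exons) and was at a mean of 3.28 FPKM, far below *HSP90B1*.

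*DNAJB9* (ENSG00000128590, chr7:108569568-108574850, plus strand) encodes ERdj4, a J-domain cochaperone of BiP that also restrains IRE1. It was at 5.92, 5.57 and 6.09 FPKM at 0 Gy and at 4.89, 4.48 and 5.01 FPKM at 10 Gy. All irradiated libraries lay below all controls. *DNAJB9* fell by 0.24 on the log2 scale (SE 0.05, 95% interval -0.37 to -0.12, adjusted p = 0.0117), a difference of -0.20 from the median gene. The call held with any library left out and was lost with TPM (-0.15, adjusted p = 0.0775) and upper quartile scaling (-0.03, adjusted p = 0.840).

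The level of *DNAJB9* rests on 232 to 415 reads per library, the fewest of the 10 genes. Its exons share 183 bases (6.45%) with *THAP5* and 99 bases (3.49%) with *PNPLA8*, both on the opposite strand and at levels like its own (means of 6.64 and 5.24 FPKM). Whether counting used the strand is not given in the sources used here, so reads in those bases may belong to either gene. Neither neighbour passed the test (log2 changes of 0.00 and 0.02, adjusted p of at least 0.85). The ratio of *DNAJB9* to *ERN1* was 1.55, 1.45 and 1.54 at 0 Gy and 1.12, 0.982 and 1.19 at 10 Gy. Both genes were thus at nearly the same level in irradiated cells, and the mean ratio at 10 Gy was 0.723 times that at 0 Gy.

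*SDF2L1* (ENSG00000128228, chr22:21642261-21644298, plus strand) encodes a partner of the ER cochaperone DNAJB11 in the BiP cycle. It was at 36.6, 27.9 and 32.7 FPKM at 0 Gy and at 24.9, 24.8 and 28.1 FPKM at 10 Gy. It was the most variable of the 10 genes at 0 Gy, with an SD of 13.3% of the mean, and the second control lay just below the third irradiated library. *SDF2L1* fell by 0.30 on the log2 scale (SE 0.09, 95% interval -0.53 to -0.08, adjusted p = 0.0426), the largest change of the 10 genes with the deposited values and a difference of -0.26 from the median gene. The call was lost without 0 Gy library 1 or 3 and without 10 Gy library 1 or 2 (adjusted p 0.0884 to 0.128), under each of the other scalings (0.0670 to 0.719), with a minimum of 0.1 FPKM or no filter (0.0814 and 0.151) and with limma's variance shrinkage run without a trend or robustly (0.0587 and 0.0528).

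*CALR* and *CANX* encode calreticulin and calnexin, the soluble and the membrane-bound lectin that hold glycoproteins in the folding cycle. *CALR* (ENSG00000179218, chr19:12938578-12944489, plus strand) was at 444, 446 and 423 FPKM at 0 Gy and at 438, 432 and 436 FPKM at 10 Gy. The groups overlapped, and the log2 change was -0.01 (95% interval -0.10 to 0.08, adjusted p = 0.897), which was 0.03 above the median gene. With TPM scaling *CALR* was called higher (0.12, adjusted p = 0.0233), and with upper quartile and median-of-ratios scaling the change was 0.25 and 0.04, neither of them called.

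*CANX* (ENSG00000127022, chr5:179678628-179730925, plus strand) was at 222, 241 and 231 FPKM at 0 Gy and at 215, 214 and 218 FPKM at 10 Gy. All irradiated libraries lay below all controls, by a log2 change of -0.10 (95% interval -0.19 to -0.01) that did not pass the test (adjusted p = 0.0789). Its difference from the median gene was -0.06. The change was called without 0 Gy library 1 (-0.13, adjusted p = 0.0170), the lowest control, and by voom on recovered reads (adjusted p = 0.0241), and it was 0.03 with TPM and 0.15 with upper quartile scaling. The ratio of *CANX* to *CALR* was 0.500, 0.540 and 0.546 at 0 Gy and 0.490, 0.495 and 0.499 at 10 Gy. A ratio to *CALR* without overlap in this direction was found for 30.2% of all tested genes. The groups here are apart by a narrow margin, since the first control was close to the irradiated libraries.

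*PDIA4* (ENSG00000155660, chr7:149003062-149028641, minus strand) encodes ERp72, a protein disulfide isomerase of the ER lumen. It was at 105, 103 and 104 FPKM at 0 Gy and at 102, 102 and 101 FPKM at 10 Gy, and it had the smallest SD of the 10 genes at 0 Gy relative to its mean, at 0.946%. The irradiated libraries lay below the controls, but the log2 change of -0.04 (95% interval -0.10 to 0.03, adjusted p = 0.324) did not pass the test and equalled that of the median gene. With TPM, upper quartile and median-of-ratios scaling it was 0.09, 0.22 and 0.01, none of them called.

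*HERPUD1* (ENSG00000051108, chr16:56932048-56944863, plus strand) encodes an ER membrane protein that assembles the degradation complex around the ligase SYVN1. It was at 8.28, 7.89 and 7.49 FPKM at 0 Gy and at 7.17, 8.78 and 8.23 FPKM at 10 Gy. The irradiated libraries held both the lowest and the highest value. The log2 change was 0.03 (SE 0.07, 95% interval -0.14 to 0.19, adjusted p = 0.803), and only upper quartile scaling gave a call (0.25, adjusted p = 0.0283). With the deposited values *HERPUD1* lay 0.06 above the median gene. Its ratio to *HSPA5* overlapped between groups, as did that of *PDIA4*.

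**Figure D2:**
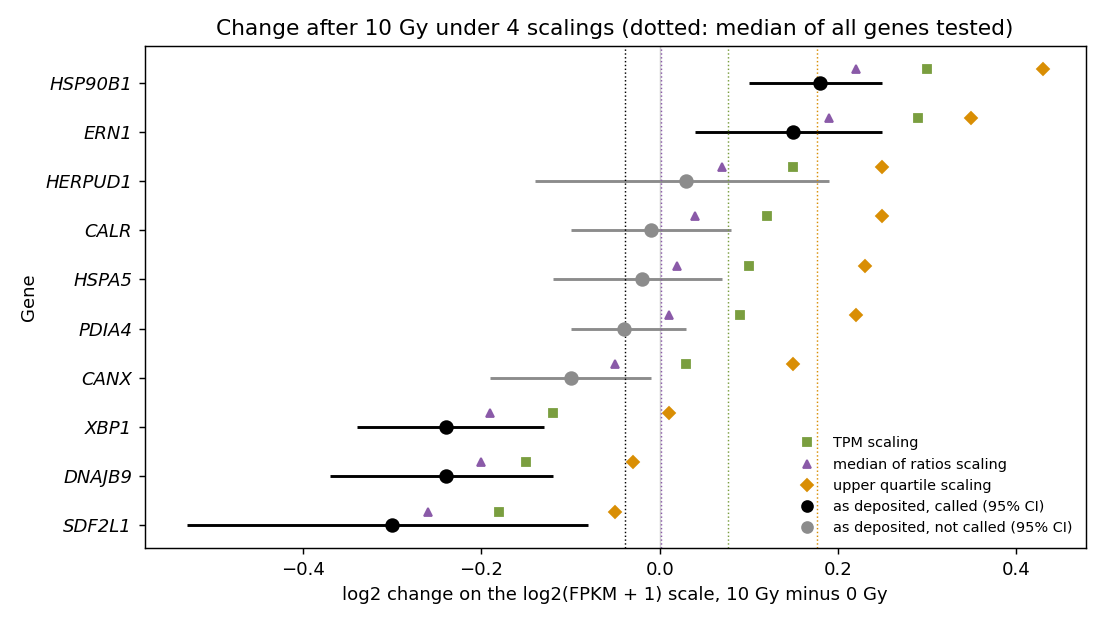
Change of each of the 10 genes at 10 Gy on the log2(FPKM + 1) scale, as deposited (circles with 95% intervals, black where called) and after TPM, median-of-ratios and upper quartile scaling, with dotted lines at the median of all tested genes under each scaling. Scaling moves the 10 genes in the same direction but by unequal amounts, and the median of all genes from -0.04 to as far as 0.18. *HSP90B1* and *ERN1* stay to the right of the median gene and *XBP1*, *DNAJB9* and *SDF2L1* to its left.

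Levels within the group can also be compared in a way that no scaling of libraries can alter. Each gene was set against the geometric mean of the 10 genes in its library, and the control mean of that log2 ratio was subtracted. *HSP90B1* then lay at -0.02, 0.03 and -0.01 at 0 Gy and at 0.24 in each irradiated library. *ERN1* lay at -0.06, 0.02 and 0.04 at 0 Gy and at 0.27, 0.30 and 0.17 at 10 Gy. Both lay above all their controls. *XBP1* lay at 0.04, -0.04 and 0.00 at 0 Gy and at -0.20, -0.15 and -0.20 at 10 Gy. *DNAJB9* lay at -0.02, -0.04 and 0.07 at 0 Gy and at -0.17, -0.33 and -0.18 at 10 Gy. Both lay below all their controls, whereas the groups of the other 6 genes overlapped. Set against the same mean, 25.6% of all tested genes lay above all their controls and 21.9% below, so that 2 of 10 each way is near the background. Since the 10 values of a library are set against their own mean, some must lie above it when others lie below.

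**Figure D3:**
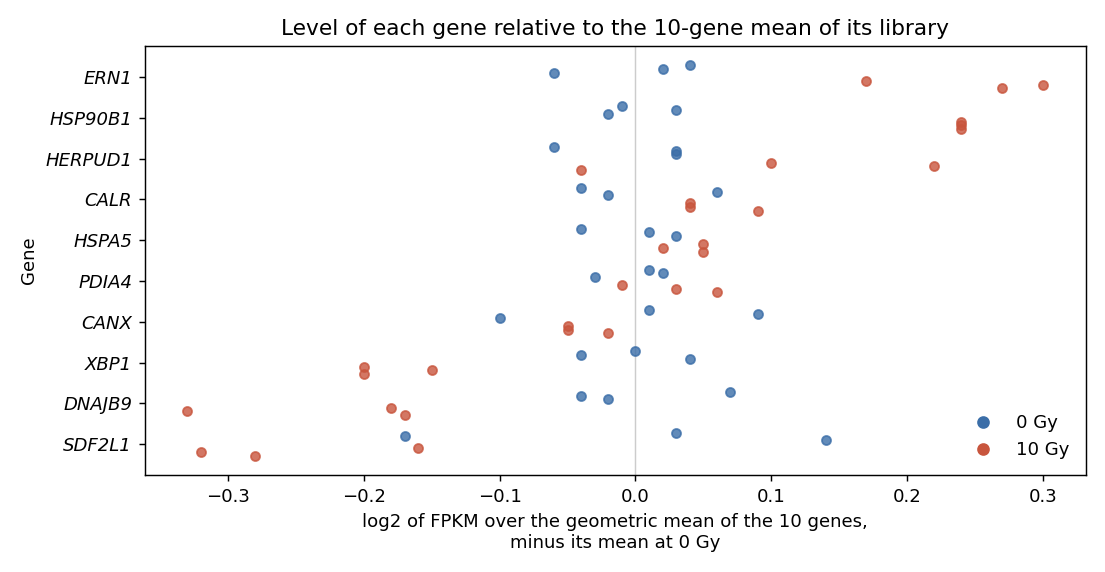
Log2 ratio of each gene to the geometric mean of the 10 genes in the same library, minus its mean at 0 Gy, with 1 point for each of the 3 libraries at 0 Gy and at 10 Gy. *HSP90B1* and *ERN1* at 10 Gy lie to the right of all their control points, *XBP1* and *DNAJB9* lie to the left, and the points of the other genes overlap.

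Against *HSPA5*, the genes *XBP1*, *DNAJB9* and *SDF2L1* were lower in irradiated cells. The ratio of *XBP1* to *HSPA5* was 0.114, 0.109 and 0.116 at 0 Gy and 0.0947, 0.101 and 0.0951 at 10 Gy. The ratio of *DNAJB9* to *HSPA5* was 0.0223, 0.0223 and 0.0249 at 0 Gy and 0.0199, 0.0182 and 0.0196 at 10 Gy. The ratio of *SDF2L1* to *HSPA5* was 0.138, 0.112 and 0.134 at 0 Gy and 0.101, 0.101 and 0.110 at 10 Gy. The groups did not overlap in any of the 3 ratios, which at 10 Gy were 0.858, 0.832 and 0.816 times those at 0 Gy. Of all tested genes, 27.2% were lower against *HSPA5* without overlap.

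The other genes of the pathway were read from 6 lists by role. Among 20 tested ER chaperones and cochaperones, 2 were called higher (10.0%, beside 11.9% of all genes) and 6 lower (30.0%, beside 23.7% of all genes), with a median log2 change of -0.05 beside -0.04 over all genes. *SERPINH1*, the collagen chaperone (0.21, adjusted p = 0.00774), and *FKBP14*, a prolyl isomerase (0.15, adjusted p = 0.0480), rose. *MANF*, a secreted factor that stabilises BiP complexes (-0.32, adjusted p = 0.00908), and the prolyl isomerase *PPIB* (-0.30, adjusted p = 0.00201) fell. *HYOU1*, the nucleotide exchange factor of BiP, had a change of 0.04 (adjusted p = 0.262). The call of *FKBP14* was lost whichever library was left out (adjusted p 0.0521 to 0.142), with a minimum of 0.1 FPKM or no filter (0.0755 and 0.111) and with the replicate block (0.0699). Those of *MANF* and *PPIB* were lost with upper quartile scaling alone, and *HYOU1* was called higher under each other scaling (0.09 to 0.30). With TPM, 4 genes of the list were called higher and 2 lower, with the upper quartile 7 and 0, and with median-of-ratios scaling 3 and 5. Without 10 Gy library 2, 5 genes of the list were called in place of 8.

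Among 20 tested disulfide and calnexin cycle enzymes, limma called none higher, beside 11.9% of all genes, and 6 lower (30.0%, beside 23.7%). The share called lower is near the background, and the median was -0.03 beside -0.04 over all genes. At an unadjusted p under 0.05 the number higher was 2, and voom on recovered reads also called 2 higher. The most abundant were *P4HB*, the main protein disulfide isomerase, and *GANAB*, the catalytic part of glucosidase II, which trims glycans before calnexin binding. Their log2 changes were -0.01 (adjusted p = 0.911) and 0.00 (adjusted p = 0.987). The lowest were *ERP29*, a chaperone with a thioredoxin fold (-0.30, adjusted p = 0.00413), and *TMX4*, a membrane thioredoxin (-0.21, adjusted p = 0.0259). The sign of 3 of these 4 changed with scaling. *P4HB* was 0.12 with TPM, 0.25 with the upper quartile and 0.04 with median-of-ratios scaling, *GANAB* was 0.13, 0.25 and 0.05, and *TMX4* was 0.01 with the upper quartile, whereas *ERP29* was negative throughout but lost its call with upper quartile scaling (-0.05, adjusted p = 0.669). The call of *TMX4* was lost with TPM (-0.11, adjusted p = 0.234), upper quartile and median-of-ratios scaling (-0.17, adjusted p = 0.0597), without a filter on low values (0.0814) and without 0 Gy library 2 or 3 or 10 Gy library 1 or 2 (adjusted p 0.0528 to 0.0855). As a list these enzymes followed the scaling, with 7 called higher and 2 lower with TPM, 7 and 0 with the upper quartile and 1 and 4 with median-of-ratios scaling.

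*HERPUD1* acts in ER-associated degradation but was counted among the 10 genes alone. Of 22 other tested genes of that process, 3 were called higher (13.6%, beside 11.9% of all genes) and 6 lower (27.3%, beside 23.7%), with a median of -0.03 beside -0.04. These shares are near the background. *SEL1L*, the scaffold of the SYVN1 ligase (0.19, adjusted p = 0.00672), and *ERLEC1*, a lectin of the same complex (0.22, adjusted p = 0.0152), rose. *MAN1B1*, a mannosidase that marks misfolded glycoproteins (-0.28, adjusted p = 0.00810, not called with TPM or upper quartile scaling), and *AUP1*, which recruits a ubiquitin-conjugating enzyme (-0.24, adjusted p = 0.00157), fell, although *AUP1* was at 0.01 with upper quartile scaling. The third gene called higher was *SYVN1* itself (0.19, adjusted p = 0.00341), which was named after its value was seen. The extraction ATPase *VCP* had a change of -0.04 (adjusted p = 0.345), and its cofactor *NPLOC4* one of -0.10 (adjusted p = 0.0309). Both turned positive with TPM (0.08 and 0.02) and upper quartile scaling (0.21 and 0.15). *NPLOC4* lost its call under each other scaling (adjusted p 0.158 to 0.608), with variance shrinkage without a trend (0.0610), with the replicate block (0.0848) and without 0 Gy library 3 or any one 10 Gy library (adjusted p 0.0646 to 0.118), and *ERLEC1* without a filter (0.0559) and without 10 Gy library 1 (0.0537). With TPM, 9 genes of the list were called higher and 1 lower, with the upper quartile 11 and 0, and with median-of-ratios scaling 4 and 3. Without 10 Gy library 1 or 2, 4 and 5 genes of this list were called in place of 9.

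Among genes for translocation into the ER, 16 of 30 were called lower (53.3%, beside 23.7% of all genes) and 1 higher (3.33%, beside 11.9%). The median was -0.12 with the deposited values, 0.00 with TPM, 0.13 with the upper quartile and -0.08 with median-of-ratios scaling. All 4 medians lay below that of all genes under the same scaling. *SSR3*, a subunit of the translocon-associated TRAP complex (-0.44, adjusted p = 5.1e-04), and *SRPRB*, a subunit of the signal recognition particle receptor (-0.43, adjusted p = 7.0e-04), fell by more than 1.3-fold. *SEC61A2*, a minor form of the translocation channel, rose (0.26, adjusted p = 0.0406), a call that was lost without 0 Gy library 1 or 3 or 10 Gy library 1 or 3 (adjusted p 0.0852 to 0.116), with a minimum of 0.1 FPKM or no filter (0.0744 and 0.131) and with the replicate block (0.0884). The oligosaccharyltransferase subunits *DAD1* and *RPN2* had changes of -0.16 (adjusted p = 0.0314) and -0.05 (adjusted p = 0.240), but 0.10 and 0.21 with upper quartile scaling, and *DAD1* lost its call with TPM (-0.03, adjusted p = 0.576), upper quartile and median-of-ratios scaling (-0.11, adjusted p = 0.0759), with a minimum of 0.1 FPKM or no filter (0.0548 and 0.105), with the replicate block (0.0736) and without any one 10 Gy library (0.0627 to 0.113). The number called in this list, 17, was the least stable: it was 5 with TPM (3 higher, 2 lower), 3 with the upper quartile (all higher) and 8 with median-of-ratios scaling (1 higher, 7 lower), and 4, 6 and 10 without 10 Gy library 1, 2 and 3. *SSR3* and *SRPRB* were negative throughout, and lost their call with upper quartile scaling alone (-0.19 and -0.21).

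The other UPR sensors and transcription factors held the largest changes. Of 16 tested, 1 was called higher (6.25%, beside 11.9% of all genes) and 5 lower (31.2%, beside 23.7%). The median was -0.06 beside -0.04 over all genes. With TPM the counts were 5 and 4, with the upper quartile 6 and 2 and with median-of-ratios scaling 4 and 5. The 5 were *ATF4*, *DDIT3*, *PPP1R15A*, *TRIB3* and *CHAC1*. *ATF3*, a stress-induced transcription factor of the same list, had a change of 0.24 that did not pass the test (adjusted p = 0.0659), with all 3 irradiated libraries above all 3 controls, and was named after its value was seen. *TRIB3*, a pseudokinase induced by ATF4, was at 17.9, 16.0 and 16.7 FPKM at 0 Gy and at 10.4, 10.4 and 10.6 FPKM at 10 Gy (log2 change -0.63, adjusted p = 4.4e-04). *PPP1R15A*, the stress-induced partner of the phosphatase that reverses PERK signalling, was at 97.2, 92.7 and 86.1 FPKM at 0 Gy and at 59.8, 58.1 and 59.7 FPKM at 10 Gy (-0.63, adjusted p = 5.1e-04). The libraries of the 2 doses were well apart for both, and both genes were called lower in every alternative run.

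*ATF4*, the transcription factor whose translation PERK favours, fell by 0.30 on the log2 scale (adjusted p = 0.00335), from a mean of 156 to 126 FPKM, and was not called with upper quartile scaling alone (-0.05, adjusted p = 0.714). *DDIT3*, which encodes CHOP (-0.35, adjusted p = 0.00770), and *CHAC1*, a glutathione-degrading enzyme (-0.35, adjusted p = 0.0249), were named after their values were seen. The call of *DDIT3* was lost with upper quartile scaling (-0.11), and that of *CHAC1* with TPM (-0.26), the upper quartile (-0.12), with a minimum of 0.1 FPKM or no filter (adjusted p 0.0509 and 0.0971) and without any one 10 Gy library (adjusted p 0.0618 to 0.0716). *CREB3L1*, an ER-anchored factor cut like ATF6, was the one called higher (0.33, adjusted p = 0.00127), also in every alternative run. The sensors *EIF2AK3* (PERK) and *ATF6* had changes of 0.03 (adjusted p = 0.716) and 0.04 (adjusted p = 0.500), beside 0.15 for *ERN1*, although *ATF6* was called higher with TPM (0.16) and upper quartile scaling (0.27).

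For comparison outside the ER, 3 of 20 cytosolic and mitochondrial chaperones were called higher (15.0%) and 8 lower (40.0%), with a median of -0.07. With TPM the counts were 9 and 3, with the upper quartile 6 and 0 and with median-of-ratios scaling 4 and 6. *HSPA8*, the cytosolic counterpart of *HSPA5*, fell (-0.28, adjusted p = 0.00281), as did the mitochondrial *HSPA9* (-0.31, adjusted p = 7.0e-04), both losing the call with upper quartile scaling alone. *HSP90AB1*, a cytosolic counterpart of *HSP90B1*, had a change of -0.07 (adjusted p = 0.290), which was 0.06 with TPM and 0.19 with upper quartile scaling. *DNAJB4* (0.34, adjusted p = 0.00625) and *BAG3* (0.25, adjusted p = 0.00629), both cochaperones of cytosolic Hsp70, rose. Over all genes 11.9% were called higher and 23.7% lower, and none of the 6 lists was tested as a set. *FKBP10*, *DERL3*, *ERN2* and *NUPR1* were below the minimum level and were not tested.

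**Figure D4:**
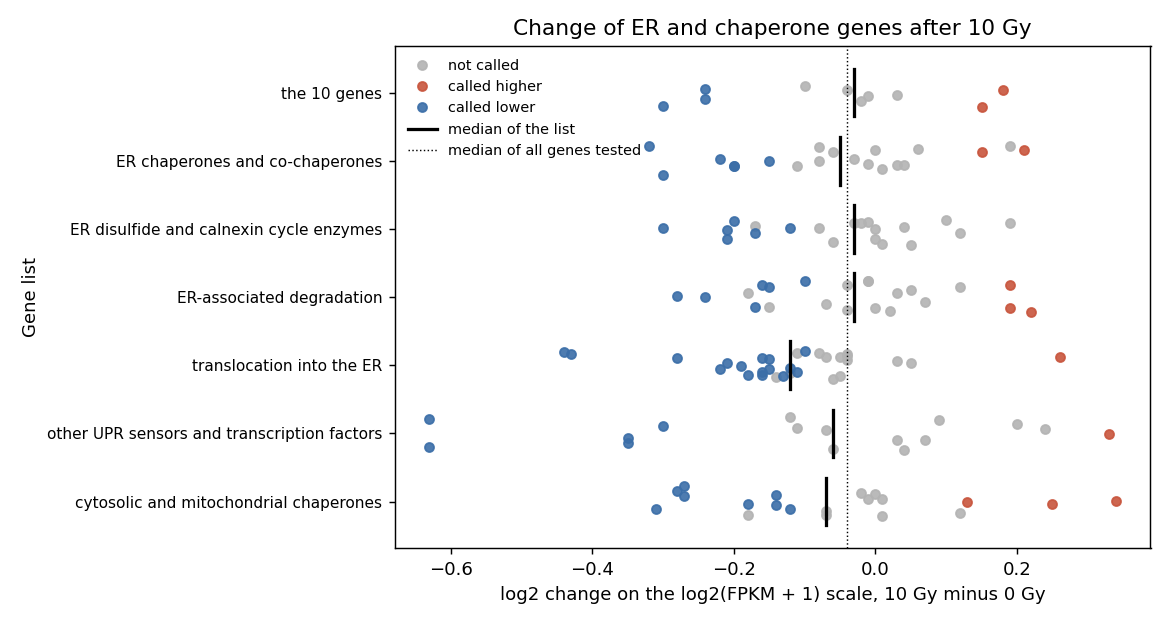
Log2 change at 10 Gy of each tested gene of the 10 and of 6 lists of ER and chaperone genes, coloured by call, with a bar at the median of each list and a dotted line at the median of all genes. With the deposited values translocation genes lie furthest left as a list (median -0.12, but 0.13 with upper quartile scaling), the lowest single values are those of *TRIB3* and *PPP1R15A* (-0.63), and the 10 genes lie between -0.30 and 0.18.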

How the data were processed

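RNA-sequencing values of 6 libraries of MDA-MB-231 cells labelled SCR were analysed, 3 at 0 Gy and 3 at 10 Gy, grouped by the treatment given in the sample labels. RNA was taken 24 h after irradiation and sequenced as polyA libraries by the provider named in the paper. The authors deposited FPKM values per gene, and the submitters' processing notes name HISAT2 and GRCh38 without versions, while the counting program and its use of the strand are not given in the sources used here. Gene spans and exon lengths of the 10 genes equal those of GENCODE 29. Multiplying FPKM by gene length and by the depth implied for each library gave whole reads, within 0.05, for 100% of values above 0. A scaling factor per library is already in the values. It was 0.9725, 0.9825 and 0.991 at 0 Gy and 1.0361, 1.0389 and 1.0278 at 10 Gy, so it goes with dose, and a higher factor gives a lower FPKM. The recovered reads served for depth and for voom alone. Voom used the implied depths and so carries the same factor.

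The 12128 genes whose mean reached 1 FPKM were tested with limma 3.58.1 (R 4.3.3). Its eBayes step with an intensity trend was applied to log2(FPKM + 1), and p-values were adjusted by Benjamini-Hochberg over all of them. A change on this scale understates that of low genes. Tests were run on simulated data first. The 10 genes and the lists were chosen with earlier results of these data known. Named besides the 10 genes were, from each list, the 2 most abundant genes and the 2 called genes with the highest and the 2 with the lowest change. The sensor genes *EIF2AK3* and *ATF6* were named outside this rule, and other exceptions are stated. Alternatives covered the pseudocount, the filter, scaling, eBayes settings, protein-coding genes alone, the replicate block, voom on recovered reads and each library left out. Sequences were read from RefSeq and GENCODE by script, and protein sequences were not used here. Python 3.11.15 with matplotlib 3.10.9 drew the figures.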

Additional observations from a re-analysis of the deposited data

How the results depend on the processing

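Of the 10 genes, *HSP90B1* was called higher in every alternative, and *XBP1* and *DNAJB9* were called lower in all but TPM and upper quartile scaling. The number called higher, 2 with the deposited values, was 1 with a minimum of 0.1 FPKM, without a filter and with the replicate block, 4 with TPM scaling and 1 with any library left out. The number called lower, 3 with the deposited values, was 0 with TPM and with upper quartile scaling. Over all genes, 3113 were called higher and 1066 lower with TPM, 3922 and 122 with the upper quartile, and 1815 lower without a filter, and 852 to 1393 higher and 1808 to 2630 lower with a library left out, fewest without 10 Gy library 1 or 2. Among translocation genes 17 were called with the deposited values, and 11 with a minimum of 0.1 FPKM, 6 without a filter, 5 with TPM, 3 with the upper quartile, 8 with median-of-ratios scaling, 8 with the replicate block and 4 to 14 with a library left out. With a library left out, 5 to 7 ER chaperones (8 with all libraries) and 4 to 9 degradation genes (9 with all) were called, and upper quartile scaling called 6 cytosolic and mitochondrial chaperones in place of 11.

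The sign turned for the following changes, most of which were not called with the deposited values. With TPM, upper quartile and median-of-ratios scaling the change was 0.10, 0.23 and 0.02 for *HSPA5*, 0.09, 0.22 and 0.01 for *PDIA4*, 0.12, 0.25 and 0.04 for *CALR*, 0.12, 0.25 and 0.04 for *P4HB*, 0.13, 0.25 and 0.05 for *GANAB* and 0.08, 0.21 and 0.00 for *VCP*. With TPM and upper quartile scaling it was 0.03 and 0.15 for *CANX*, 0.02 and 0.15 for *NPLOC4*, 0.08 and 0.21 for *RPN2* and 0.06 and 0.19 for *HSP90AB1*. With upper quartile scaling alone it was 0.01 for *XBP1*, *TMX4* and *AUP1* and 0.10 for *DAD1*. With voom *GANAB* was at 0.00. With each library left out in turn, the change ran from -0.05 to 0.01 for *HSPA5*, from -0.03 to 0.10 for *HERPUD1*, from -0.03 to 0.01 for *CALR*, from -0.02 to 0.01 for *P4HB*, from -0.02 to 0.02 for *GANAB* and from -0.01 to 0.07 for *EIF2AK3*. Scaling itself moved the median of all genes, as given above, and the cause of the other shifts was not tested.

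No shared deviation by replicate number was seen, since the correlations of same-numbered deviations were -0.04, -0.035 and -0.101. With 3 libraries per dose this cannot show whether the libraries were paired by experiment. With the replicate block, 1137 genes were called higher and 2366 lower, and *ERN1* lost its call (adjusted p = 0.0911). Depth was lowest for *DNAJB9*, with 232 to 415 reads per library.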
